A study of Oryctolagus cuniculus with 4 samples.

Results

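Without platelet-rich plasma (PRP), a pair of adjacent genes on rabbit chromosome 13 had little transcript in tendon stem/progenitor cells. The first was at a low level and the second nearly silent. Both had far more transcript in cells grown with PRP (2427 against 3.65 counts-per-million for the first gene). The genes were taken by position: all genes of chromosome 13 in the OryCun2.0 assembly that start at or after 132920172 and end at or before 133017336. This gave 3 of the 29587 listed genes, all 3 with counts, of which 2 passed the filter on low counts and were among the 12707 tested genes. The first gene of the pair is ENSOCUG00000006582 and the second is ENSOCUG00000006578. The other gene lies inside an intron of the first and is called the intronic gene here. The pair was selected on its fold changes and adjusted p in the comparison of PRP with no PRP in these libraries, so their difference between the groups is given as a description and supports nothing further. The files carry identifiers without symbols, and 0 identifiers matched the gene table used here, so no gene is named by function.

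The cells were tendon stem/progenitor cells of New Zealand White rabbits. For one group the culture medium contained PRP at 10% (v/v), and for the other it contained none (noPRP), with 2 libraries in each group. Whether replicate libraries stem from different rabbits or dishes the labels leave unsaid, so the spread between them may be technical. The libraries held 20100175 to 24064713 counted reads. Without symbols, the cell type could not be checked against its marker genes. Of the tested genes, 68 were higher (0.535%) and 41 lower (0.323%) in PRP by edgeR's quasi-likelihood test, with 0.05 as the threshold on the adjusted p. Deviations of same-numbered libraries from their group means had a correlation of −0.66 across genes.

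Tendon stem/progenitor cells are cells of tendon from which new tendon cells can form. PRP is plasma with concentrated platelets, which release growth factors, chemokines and other proteins when activated, and plasma adds its own proteins and lipids. Genes that lie side by side can differ in transcript level by orders of magnitude, can share control regions, or can be copies of one ancestral gene. Copies that arose in tandem often keep the lengths of their inner coding exons even where their outer exons differ.

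The first gene lies on the minus strand at 132920172 to 132966605, a span of 46434 bases with 6 exons and 1560 exonic bases. Its leading 5 exons fall within 3737 bases at its 5′ end, and its last exon, of 1130 bases, follows after an intron of 41567 bases. That last exon holds 72.4% of the exonic bases, and the deposited counts are not split by exon. The second gene lies on the plus strand at 132995584 to 133017336, spans 21753 bases and has 8 exons after overlapping ones are joined (12 as listed), with 1467 exonic bases. The 5′ ends of the pair thus face each other across a gap of 28978 bases. Such a head-to-head arrangement was common. Of 10912 pairs of adjacent tested genes without overlap, 26.1% were divergent, and 48.6% of those had a gap no longer than this one. The intronic gene, at 132944475 to 132948640 on the plus strand, has 5 exons and 593 exonic bases within the long intron of the first gene. None of its exons overlaps an exon of the first gene (0 overlaps), so counting without regard to strand did not mix their exonic reads.

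All 3 genes contain an exon of 145 bases followed, in the direction of transcription, by an exon of 107 bases. In the first gene these are exon 3 (132965444 to 132965588) and exon 4 (132965104 to 132965210), with an intron of 233 bases between them. In the intronic gene they are also exons 3 and 4 (132945921 to 132946065 and 132946303 to 132946409), with an intron of 237 bases. The second gene holds the arrangement 2 times, as exons 2 and 3 and again as exons 6 and 7, each time with an intron of 222 bases, and an intron of 16180 bases separates exon 4 from exon 5. Its gene model is therefore internally repeated in exon lengths, and a count for it does not say which set of exons the reads came from. Over the whole annotation, with overlapping exons of a gene joined, 8 of 183352 adjacent exon pairs had these lengths in this order, in 7 genes: 4 in the genes described here and 4 elsewhere. The other 4 genes lie on chromosomes 1, 4 and 16 and on GL019577, and their introns between these exons run from 383 to 17229 bases. The search was made after the exon lengths had been seen, so its counts are a description.

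Genes on either side carry similar exon lengths. Within 100 kb of the pair lie 9 genes, the 3 already described included. Of these, 4 have listed exons of both 145 and 107 bases, namely the 3 already described and a neighbour, as do 0.372% of all listed genes. The lengths 139 and 110 were added because they had been seen in these neighbours. With these allowed, 7 have a listed exon of 139 or 145 bases and one of 107 or 110 bases. That holds for 1.24% of all listed genes. The count of 7 follows in part from this choice of lengths and is a description. These 7 follow each other without interruption over 206411 bases. The neighbour at 132853496 to 132860642 and that at 132876738 to 132883653 have exons of 145 and 110 bases. The neighbour at 132897143 to 132911601 has 145 and 107, the latter overlapping a longer listed exon and so absent from the count over joined exons, and that at 133057317 to 133059906 has 139 and 107. No sequences of these genes were used here, so whether they belong to one family was not tested. Reads that align to several places are dropped under the program's defaults, and a loss of such reads from similar exons was not tested either.

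**Figure D1:**
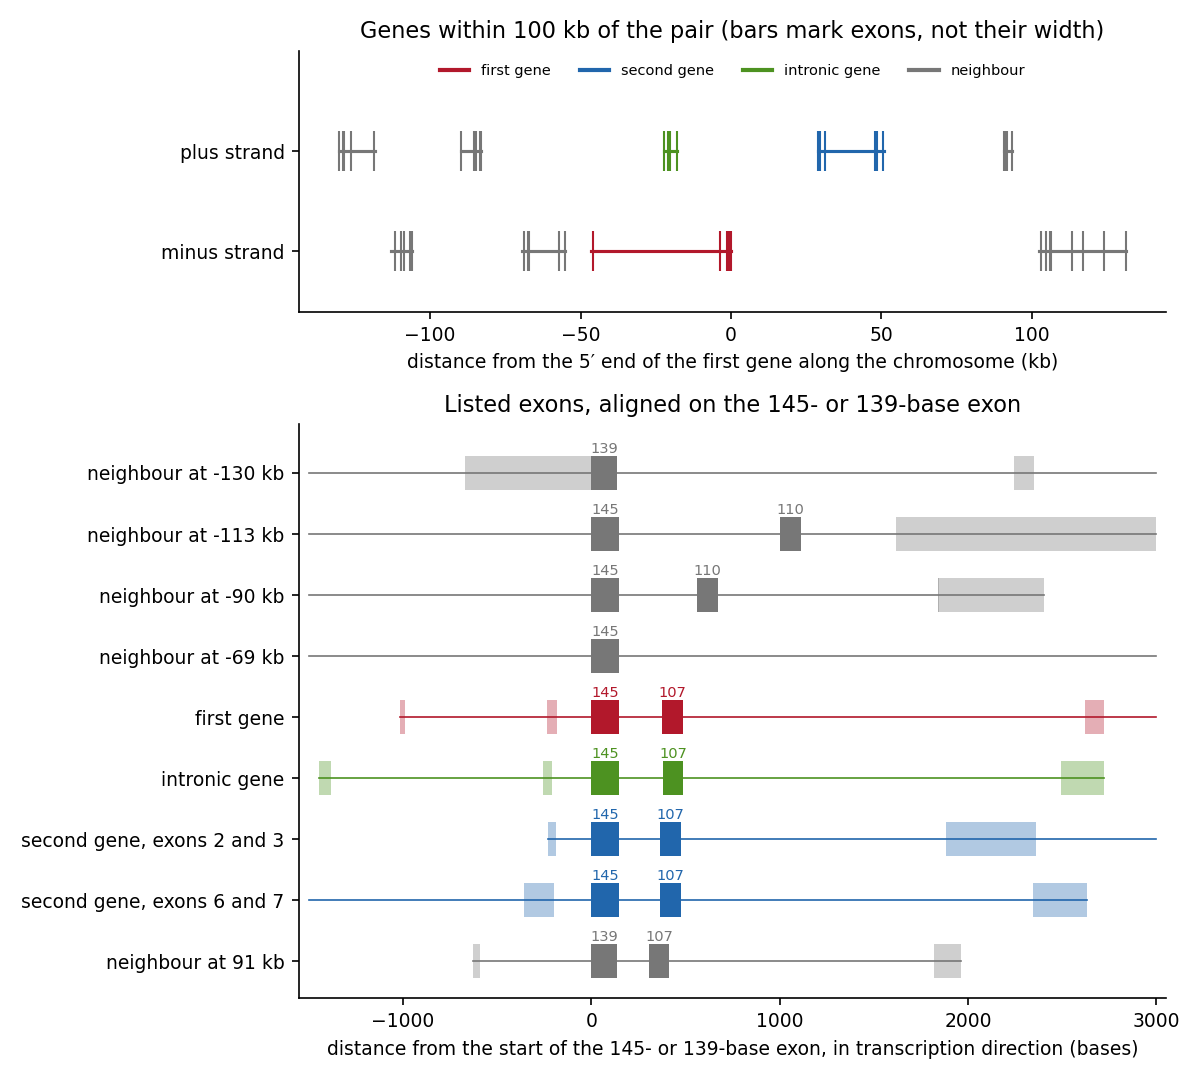
Upper panel: genes within 100 kb of the pair by strand, against distance in kb from the 5′ end of the first gene, with a bar at each listed exon. Lower panel: listed exons drawn to scale in bases and aligned on the start of the 145-base or 139-base exon, with matching lengths printed above; the 107-base exon follows after 222 to 237 bases in the 3 genes described here. The 107-base exon of the neighbour at −69 kb lies beyond the right edge, and the neighbour at −130 kb has no exon of 107 or 110 bases.

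The first gene had 117 and 45 counts in noPRP replicates 1 and 2, and 58282 and 48727 counts in PRP replicates 1 and 2. On the counts-per-million (CPM) scale, after trimmed-mean (TMM) scaling of the libraries, its levels were 5.32 and 1.98 in noPRP and 2424 and 2430 in PRP. Both PRP libraries stood far above both noPRP libraries, and the groups did not overlap. In 23.8% of all tested genes, too, both PRP libraries were above both noPRP libraries. The group means were 3.65 ± 2.4 CPM and 2427 ± 4.0 CPM (SD, n = 2 each). Relative to the TMM-scaled library sizes of each group, its summed PRP counts were 670-fold above its summed noPRP counts, with an exact 95% interval of 574 to 786 that covers counting error only. If both ends of each read pair were counted, halving the counts widens that interval to 539 to 843. The values behind the choice of the gene were a log2 fold change of 9.37, with an SE of 1.17, and an edgeR adjusted p = 0.00467. Without noPRP replicate 1, the control library with the higher level, the log2 fold change was 10.27, and without noPRP replicate 2 it was 8.82.

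The second gene was nearly at 0 in noPRP, with 2 counts in replicate 1 and 0 in replicate 2, against 353 and 739 counts in PRP. Its levels were 0.091 and 0 CPM in noPRP and 14.7 and 36.9 CPM in PRP, again with no overlap between the groups. The PRP mean was 25.8 ± 16 CPM (SD, n = 2). With only 2 counts in the control group, the fold is loosely bounded: the summed counts, relative to the same library sizes, gave 554-fold, with an exact 95% counting interval of 153 to 4576. Halving the counts widens that interval to 98.9 to 21902. The fitted log2 fold change of 8.99, with an SE of 1.38 and an edgeR adjusted p = 0.0138, depends on the small count added in the fit. It was 12.17 without noPRP replicate 1, which leaves a control at 0, 8.04 without noPRP replicate 2 and 8.22 without PRP replicate 2.

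The intronic gene was read only in PRP, with 12 and 7 counts (0.499 and 0.349 CPM) against 0 in each noPRP library. Set against a floor of 3 counts summed over noPRP, it was at least 6.42-fold higher in PRP. It stayed below the filter on low counts and was not tested. The first gene had 58282 and 48727 counts in the same PRP libraries. Reads from unspliced transcripts of the first gene would fall on the intronic gene's exons as well, and because the counting ignored strand the source of these few reads cannot be told apart.

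Of the 3 genes, 2 were tested, and both were called higher in PRP, where 0.535% of all tested genes were. That count follows from the way the interval was chosen. Among the 68 genes called higher, the first gene was 12th by log2 fold change and 8th by mean PRP level in CPM, and the second was 16th and 36th. Of the 878 tested genes of chromosome 13, 8 were called higher, the pair included (0.911%), and 1 was called lower (0.114%).

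**Figure D2:**
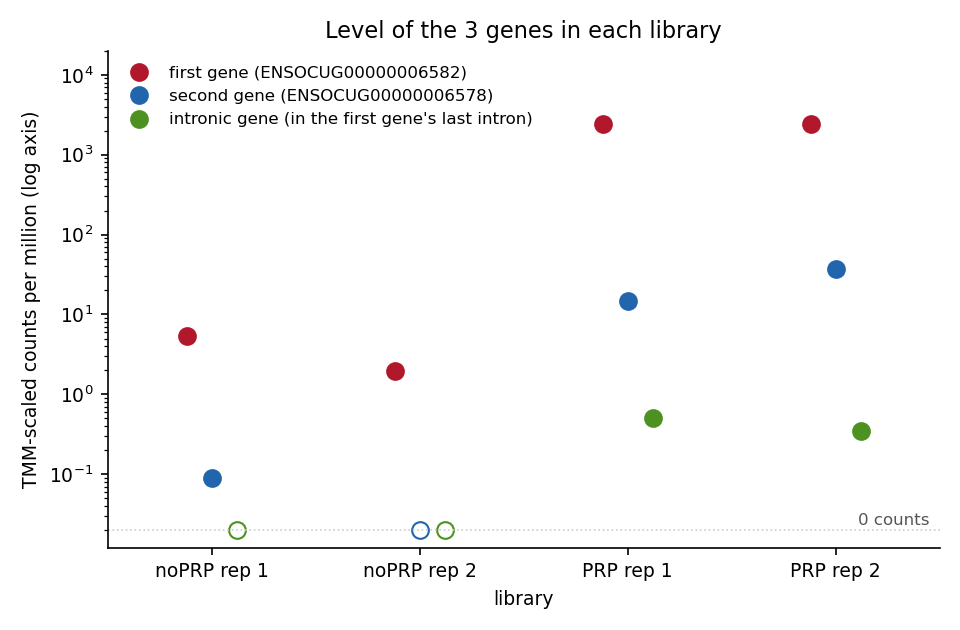
Level of each of the 3 genes in each library, in TMM-scaled CPM on a log axis; open circles mark 0 counts. The first gene sits at 5.32 and 1.98 CPM in noPRP and at 2424 and 2430 CPM in PRP, the second reaches 14.7 and 36.9 CPM in PRP, and the intronic gene stays under 1 CPM in all libraries.

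Compared per kilobase of exon, the first gene moved from the lower part of the expressed genes to near the top. Its level was 3.41 and 1.27 CPM per kilobase in noPRP, above 37.7% and 21.0% of tested genes. In PRP it was at 1554 and 1558 CPM per kilobase and ranked 35th and 76th of the 12707 tested genes. It accounted for 0.000582% and 0.000215% of the noPRP counts and for 0.242% and 0.204% of the PRP counts. The second gene reached 10.0 and 25.1 CPM per kilobase in PRP, above 57.7% and 74.9% of tested genes. It was thus a mid-level transcript in PRP, while the first was among the most abundant.

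The first gene outweighed the second in every library. The ratio of their counts was 58.5 in noPRP replicate 1, with 117 against 2 counts, and could not be formed in noPRP replicate 2, with 45 against 0. It was 165 in PRP replicate 1 and 65.9 in PRP replicate 2. Per kilobase of exon the PRP ratios were 155 and 62.0. As a share of the counts on both genes, the second gene held 0.602% in PRP replicate 1 (exact 95% binomial interval 0.541 to 0.668) and 1.49% in PRP replicate 2 (1.389 to 1.605). These intervals do not overlap, nor do they with halved counts (0.515 to 0.696 and 1.34 to 1.65), so the 2 PRP libraries differed in the ratio beyond counting error. This compares 2 libraries and not 2 conditions. In noPRP replicate 1 the share was 1.68% (0.204 to 5.94), and in noPRP replicate 2 it was 0 of 45 counts, which allows a share of up to 6.67% by the limit of 3 counts of the total, or 7.87% by the exact interval. Both PRP shares lie within what the noPRP counts allow, so a change of the ratio with PRP was not detectable at this depth.

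The PRP libraries agreed closely on the first gene and less on the second. The level of the first gene in PRP replicate 2 was 1.002 times that in replicate 1, and only 0.315% of tested genes had a smaller difference between the PRP libraries. This near identity rests on the TMM scaling: with CPM from plain library totals, the levels were 2422 and 2045 CPM, a ratio of 0.844. The second gene was 2.51 times higher in PRP replicate 2 than in replicate 1, or 2.11 times with plain totals, and 75.8% of tested genes differed less on the log2(CPM + 0.5) scale. The pair therefore did not rise to the same relative extent in both PRP libraries. In noPRP, the first gene in replicate 2 was at 0.372 times its level in replicate 1, a difference larger than that of 66.1% of tested genes.

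**Figure D3:**
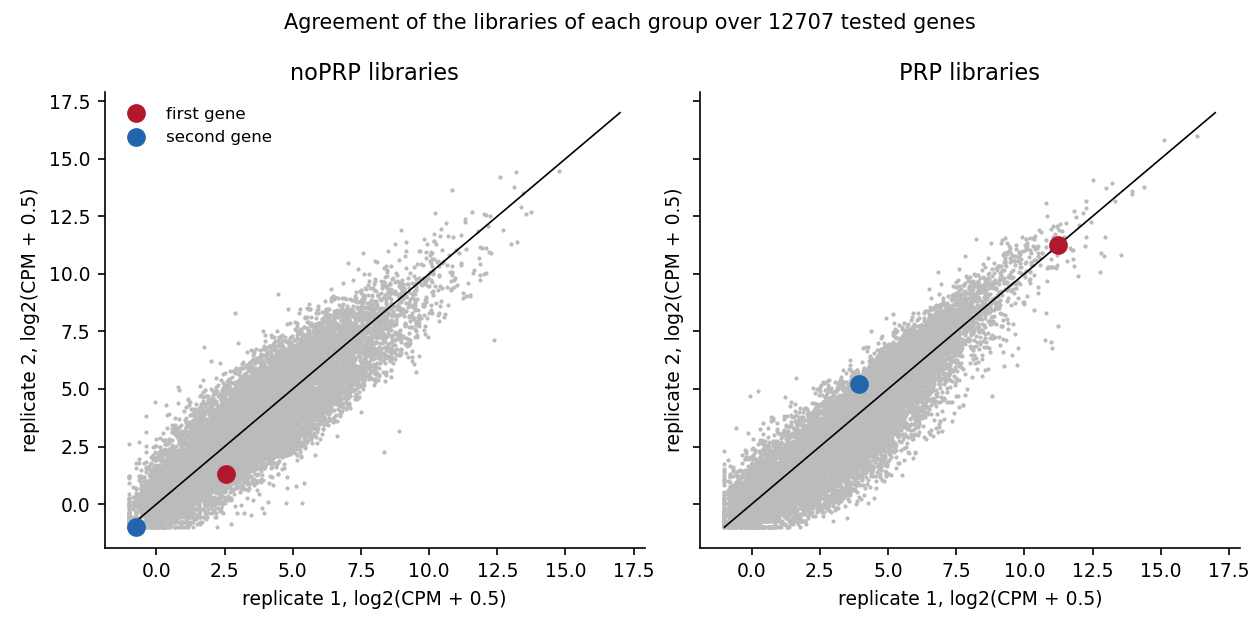
Replicate 2 against replicate 1 for the noPRP libraries (left) and the PRP libraries (right), on the log2(CPM + 0.5) scale, with each tested gene in grey and the line of equal level in black. In PRP the first gene lies on the line at a ratio of 1.002, and the second lies above it at 2.51 times.

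The genes around the pair were mixed, some at or near 0 counts and others expressed. No tested neighbour passed the threshold in the filtered edgeR fit of all 4 libraries with group as the only term. Within 500 kb on either side lie 21 other genes, 11 before the pair and 10 after it. Of these, 6 had 0 counts in every library, 4 had counts but stayed below the filter and 11 were tested. Over the whole annotation, 12707 of 29587 listed genes were tested, so untested genes were not particular to these surroundings. Of the 11, edgeR called 0 (against 0.858% of all tested genes), with 2 at an unadjusted p under 0.05 (13.3% of all tested genes). DESeq2 called 1 (5.73% of all tested genes) and limma-voom called 0 (1.08%). In 9 of them the fold change was above 1 and in 2 below it. Their median log2 fold change was 0.99, against 0.04 over all tested genes, and it was 0.92 without the gene at 0 in noPRP. In 5 of the 11, both PRP libraries were above both noPRP libraries, against 23.8% of all tested genes. The gene at 0 in noPRP and the gene at 132394709 to 132435601 are among these 5. They are also the 2 with an unadjusted edgeR p under 0.05. The latter stayed at or below 0.176 CPM without PRP, so both passed the filter only through their PRP counts. Another of the 5, at 132474028 to 132488808, had 21 and 2 counts in noPRP against 40 and 68 in PRP. Its passing of the filter thus rested on its PRP counts as well. The tallies of the 11 thus depend in part on the filter, and how far was not tested.

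The nearest neighbour, 8570 bases beyond the 3′ end of the first gene at 132897143 to 132911601, showed the same direction at a low level. It is the neighbour with exons of 145 and 107 bases. No read fell on it in noPRP (0 counts in each library), while PRP gave 15 and 36 counts, or 0.624 and 1.80 CPM. Its PRP counts were 17.2-fold above the same floor, without allowance for counting error in the PRP counts. It passed the filter only through its PRP counts, and it lay just outside the threshold that the pair passed (edgeR adjusted p = 0.0674). With other normalizations, filters and tools, a replicate block or a library left out, the adjusted p lay anywhere between 0.00538 and 0.35, and it fell below 0.05 with DESeq2 (0.00963), without a filter (0.00538) and without PRP replicate 1 (0.0407).

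The other genes with matching exon lengths had few reads. The neighbour at 132853496 to 132860642 was near 0 in 3 libraries, with 2, 1 and 4 counts in noPRP replicates 1 and 2 and PRP replicate 1, and had 53 in PRP replicate 2, so that its reads came almost wholly from PRP replicate 2. The neighbours at 132876738 to 132883653 and at 133057317 to 133059906 had 0 counts in all 4 libraries. Over the 7 genes of the stretch, the summed counts were 121 and 46 in noPRP and 58666 and 49562 in PRP. The first gene held 96.7% and 97.8% of them in noPRP and 99.3% and 98.3% in PRP.

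Farther out lay expressed genes whose replicate libraries differed widely. The most abundant, at 132438678 to 132444207, was at 933 and 211 CPM in noPRP and 785 and 1487 CPM in PRP. The groups overlapped, and its log2 fold change was 0.99 ± 0.89 (SE). On the other side, the gene at 133314081 to 133316372 was at 224 and 49.8 CPM in noPRP and 90.2 and 302 CPM in PRP, and its log2 fold change was 0.52 ± 0.90 (SE). The first expressed gene after the pair, at 133069075 to 133098033, was at 6.33 and 12.3 CPM in noPRP and 9.32 and 2.74 CPM in PRP, and its log2 fold change was −0.62 ± 0.91 (SE). The groups overlapped in both of these genes too. Of the 11 tested neighbours, 8 were higher in noPRP replicate 1 than in noPRP replicate 2, as were 48.6% of all tested genes. The median log2 ratio of noPRP replicate 2 over 1 was −1.26 for these neighbours and 0.04 over all tested genes. Their median log2 ratio of PRP replicate 2 over 1 was 0.77, against −0.03 over all tested genes. Differences between replicate libraries that these neighbours share thus stood beside their positive fold changes, and the part they had in them was not tested.

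**Figure D4:**
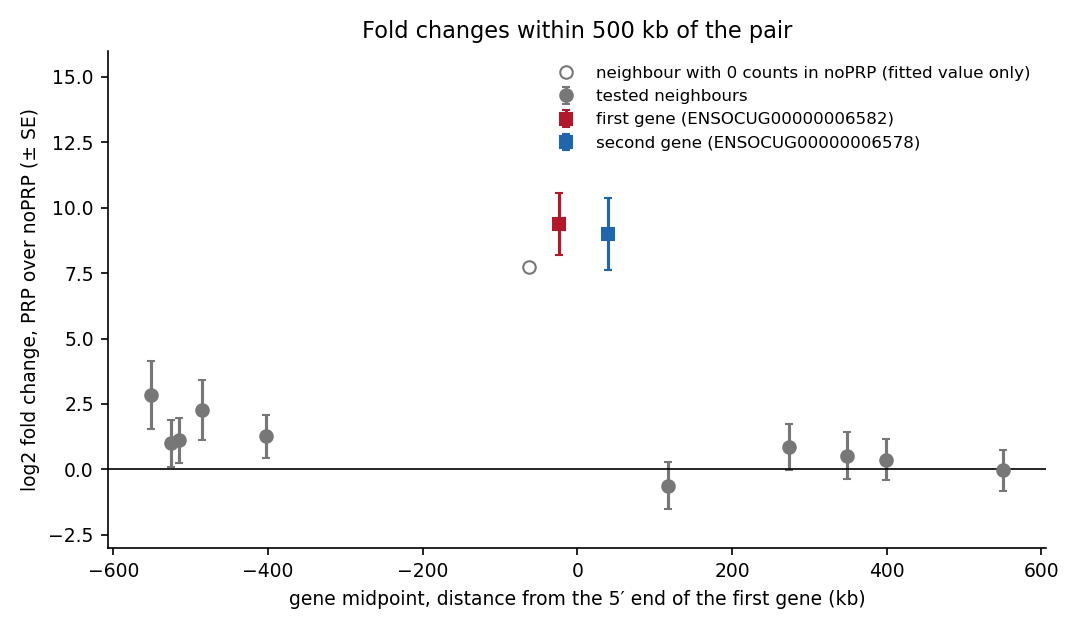
Log2 fold change of PRP over noPRP, with SE bars from the edgeR fit, against the distance of each gene's midpoint in kb from the 5′ end of the first gene, for the pair (squares) and the 11 tested neighbours (circles). The pair stands at 9.37 and 8.99; the open circle is the neighbour at 0 in noPRP, whose fitted value depends on the small count added in the fit, and the other 10 lie between −0.62 and 2.83.

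The genes most like the pair over the 4 libraries lay elsewhere in the genome. Likeness was the Euclidean distance between log2(CPM + 0.5) profiles after each was centred on its own mean, and it describes only 4 libraries. For the first gene the closest was the gene at 2188564 to 2191252 of GL018733, at a distance of 1.52, with 2.82 and 4.40 CPM in noPRP and 2104 and 1271 CPM in PRP. Next came genes at 94119060 to 94143870 of chromosome 14 (1.85) and at 97749441 to 97755469 of chromosome 2 (1.93). For the second gene the closest was the gene at 97865546 to 97881097 of chromosome 2, at 0.271, with 0 CPM in both noPRP libraries and 14.6 and 40.5 CPM in PRP. It was followed by genes at 97946131 to 98003751 of chromosome 2 (0.595) and at 22754438 to 22755771 of chromosome 3 (0.744). The distance between the first and second genes was 4.03, and the median distance to all tested genes was 9.38 from the first and 5.59 from the second. Counted by this measure, the second gene was only the 23rd closest to the first, and the first was the 908th closest to the second. The added 0.5 CPM exceeds the second gene's noPRP levels of 0.091 and 0 CPM, so the measure shortens its rise more than that of the first. The fitted log2 fold changes were 9.37 and 8.99, so the distance of 4.03 and these ranks depend on level as well as on response.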

How the data were processed

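The submitters' processing notes list the aligner STAR 2.7.2a, the counter featureCounts 1.6.5 and the genome build OryCun2.0. The deposited values are raw counts of reads per gene; per the file headers they are summed over exons of Ensembl release 98, with no option set for strand, read pairs, repeated alignments or overlapping genes. Positions and exons come from the same files. Genes passing edgeR's filterByExpr were scaled by TMM and fitted with glmQLFit and glmQLFTest (edgeR 4.0.16, R 4.3.3) with group as the only term, over all 4 libraries, with Benjamini-Hochberg adjustment over all tested genes. Called means an adjusted p under 0.05; an exact permutation test of 2 against 2 cannot go below a two-sided p of 0.333. DESeq2 1.42.0 and limma-voom (limma 3.58.1) were alternatives. The fit was tested on simulated data. Standard errors derive from the F statistic. Intervals and floors (3 counts) cover counting error only.

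The genes, lists and comparisons were chosen with earlier results of these data known. Named were the genes of the interval, neighbours by position and, per gene of the pair, the 3 tested genes with the most alike profiles; the neighbours singled out and the exon-length searches were chosen after their values were seen. The table of the whole series was not used here.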

Additional observations from a re-analysis of the deposited data

How the results depend on the processing

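Both genes of the pair kept their call and direction in all 12 other fits, with log2 fold changes of 8.82 to 10.27 (edgeR or other tool's adjusted p up to 0.0102) for the first and 8.04 to 12.17 (up to 0.024) for the second; their selection on this contrast nearly fixes the direction, so this adds no support. The number of called genes, 109, was 60 with upper-quartile normalization, 565 without a filter and 728 with DESeq2. It was 114 to 571 with a library left out; the counts past 1.5 times came without noPRP replicate 1 (571) and without PRP replicate 1 (165). The share called higher, 62.4%, was 76.7% after upper-quartile scaling, 42.0% with DESeq2, 40.7% without a filter and 80.7% with a replicate block. Without noPRP replicate 1 it was 24.2% (138 higher, 433 lower), so most calls then were lower in PRP; without PRP replicate 2 it was 77.7%. Among neighbours within 500 kb, 0 were called, against 1 without a filter, 1 with DESeq2 and 0 to 1 with a library left out; windows of 250 and 1000 kb gave 0. With a replicate block 57 genes were called and the pair kept its call; the labels do not say that the numbers pair libraries. The crossed replicate block, chosen after seeing the data, called 3588 of the 12707 tested genes (46.0% higher) and 4 of the 11 tested neighbours. Calls were thus frequent over all tested genes in that fit. The mean share of the pair's counts on the first gene, 99.2% in noPRP and 99.0% in PRP, was 98.3% to 100% and 98.5% to 99.4% with a library left out. Why the counts differ between settings: the cause was not tested. Depth limits the noPRP values of the second gene (2 counts) and of the intronic gene (0).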
